A study of Mus musculus with 14 samples.

Results

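Keratins are the intermediate filament proteins of epithelial cells, and each filament is built from pairs of a type I and a type II keratin. Simple epithelia such as the colon use the type II keratins 7 and 8 with the type I keratins 18, 19, 20 and 23, whereas stratified squamous epithelia use the pair 5 and 14 in their basal layer and, on mucosal surfaces, the pair 4 and 13 above it. In the colon, keratin 20 is known as a marker of the differentiated cells of the upper crypt and the surface, and keratins 8, 18 and 19 form the general filament network of the epithelium.

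The genes of these 10 keratins (Krt7, Krt8, Krt18, Krt19, Krt20, Krt23, Krt5, Krt14, Krt13 and Krt4) were taken by symbol from a table of 37680 genes, and all 10 were found. RNA-seq counts came from 14 libraries of colon epithelium, which was stripped from the whole colon with EDTA. The groups were 4 libraries of WT mice and 4 of Smad4 IEC-KO mice on drinking water, and 3 libraries of each genotype after 3 d of 2.5% DSS, a sulfated sugar polymer that damages the colon epithelium. The Smad4 IEC-KO carried Smad4 f/f and the Villin-Cre ERT2 transgene, which acts in the intestinal epithelium after tamoxifen, given on 4 consecutive days. The study states that the transgene was brought into floxed mutants and controls, does not say which alleles the mice labelled wildtype carry, and gives ages between 8 and 14 wk, with sexes matched and not named, on a background enriched for C57/BL6.

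Library totals ran from 12882827 to 26087231 counts. The share of mitochondrial counts was 4.05 to 8.23% in 11 libraries and 21.4 to 32.8% in WT water replicates 3 and 4 and Smad4 IEC-KO water replicate 4. The targeted gene Smad4 had 2372 to 3188 normalized counts in WT water, 3407 to 3650 in WT DSS, 808.2 to 878.4 in Smad4 IEC-KO DSS and 702 to 936.2 in Smad4 IEC-KO water replicates 2 to 4. Replicate 1 of Smad4 IEC-KO water, as labelled, had 3164, within the range of WT water. The study's figure legends give 3 replicates for Smad4 IEC-KO on water, whereas the labels give 4. Log2 fold changes of Krt20, Krt7 and Krt8 that use replicate 1 are given with and without it. Other values of Smad4 IEC-KO water include it unless stated. Epcam, Cdh1, Vil1, Cdx1 and Cdx2, which mark intestinal epithelium, summed to 68950 to 98870 normalized counts in the 14 libraries, and Trp63, the master regulator of stratified epithelium, had 0 counts in all of them. Normalized counts here are counts divided by the effective library size and set to the mean size.

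Levels of different keratins were compared per kb of the coding transcript, since longer transcripts give more reads. By this measure Krt8 was highest in every group, with means of 56630 to 81730 normalized counts per kb, followed by Krt19 with 43820 to 55830. Krt18 followed with 7502 to 9001 and Krt20 with 4108 to 7430. Krt18 and Krt20 were close in WT. On water, Krt18 had 9001 ± 1020 and Krt20 6771 ± 1240 (SD, n = 4), and after DSS their libraries ran from 7760 to 9180 and from 6421 to 8373, so that their ranges overlapped. Per kb of coding sequence the order of these 2 means turned in WT, with 9906 for Krt18 and 10070 for Krt20 on water. In Smad4 IEC-KO DSS the ranges were apart, at 7226 to 8145 for Krt18 and 3488 to 4508 for Krt20. Krt7 had means of 957.2 to 1499, or 2852 to 4465 per kb of coding sequence, and Krt23 of 99.63 to 117.4 per kb. The squamous keratins were far below, with Krt14 at 6.007 to 15.31, Krt13 at 3.475 to 7.226, Krt4 at 0.191 to 0.8244 and Krt5 at 0. Over all genes, ranked by the mean normalized count and not per length, Krt8 stood at place 10 and Krt19 at place 14 of 37680.

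The genes lie in the 2 keratin clusters of the mouse genome (mm9). The type I members are on chromosome 11, with Krt20 at chr11:99289717-99299464, Krt23 at chr11:99339288-99354451, Krt13 at chr11:99978641-99982880, Krt19 at chr11:100002124-100009979 and Krt14 at chr11:100064476-100068862, all on the minus strand. The type II members are on chromosome 15, with Krt7 at chr15:101241474-101260744 (plus), Krt5 at chr15:101537501-101543322 (minus), Krt4 at chr15:101748967-101755166 (minus) and Krt8 at chr15:101827142-101834773 (minus). Krt18, the type I partner of Krt8, lies beside it at chr15:101858647-101862457 (plus).

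The promoters of Krt20 and Krt7, the 2 keratins with the lowest p-values between the genotypes after DSS, and of Krt8, the most abundant keratin, are shown because the deleted gene encodes a transcription factor. Each is the 250 bases before the RefSeq start (GRCm38.p6), 5′ to 3′ on the gene's strand, placed by exact match on mm9. Capitals mark CAGAC or its reverse complement GTCTG, the short box bound by Smad proteins, and TATAAA, the TATA box.
Krt20, chr11:99299468-99299717, minus strand: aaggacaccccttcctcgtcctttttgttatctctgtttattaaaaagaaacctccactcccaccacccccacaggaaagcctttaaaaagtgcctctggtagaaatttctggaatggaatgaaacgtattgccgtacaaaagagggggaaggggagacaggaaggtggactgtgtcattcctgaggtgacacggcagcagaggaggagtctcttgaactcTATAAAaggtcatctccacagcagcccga
Krt7, chr15:101242584-101242833, plus strand: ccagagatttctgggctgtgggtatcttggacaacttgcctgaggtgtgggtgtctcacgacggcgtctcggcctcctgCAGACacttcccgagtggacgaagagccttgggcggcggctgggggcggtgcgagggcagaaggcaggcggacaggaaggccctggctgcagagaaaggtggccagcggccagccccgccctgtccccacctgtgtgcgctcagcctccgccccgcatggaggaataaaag
Krt8, chr15:101834774-101835023, minus strand: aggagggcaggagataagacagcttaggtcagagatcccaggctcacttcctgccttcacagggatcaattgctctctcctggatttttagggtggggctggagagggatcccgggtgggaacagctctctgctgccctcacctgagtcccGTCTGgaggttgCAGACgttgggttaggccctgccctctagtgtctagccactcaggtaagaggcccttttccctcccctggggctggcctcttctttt

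Krt20 held TATAAA 29 bases before its start and no CAGAC on either strand. Krt7 held 1 CAGAC, 171 bases before its start, and Krt8 held 2, which begin 99 and 87 bases before. RefSeq windows were at hand for 8 of the 10 keratins, of which 6 held CAGAC, beside 42.2% of the 32841 promoter windows of the same length. A keratin was counted if any of its windows held the motif, and Krt13 had 2 windows, whereas the shares over all are of single windows. TATAAA was in 1 of the 8 and in 12.4% of all windows. The Smad element GTCTAGAC was in none of the 8 and in 0.167% of all. The Krt7 window lies inside the longer Krt7 gene of the mm9 annotation and overlaps an exon of a non-coding Krt7 transcript and, with its last base, the first exon of a coding one, and the windows of Krt20 and Krt8 touch no annotated transcript. No factor binding was measured in these libraries, so these matches are a description of the letters.

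To determine how Smad4 loss affected the keratins in the injured epithelium, Smad4 IEC-KO was compared with WT after DSS. Krt20 RNA was lower in Smad4 IEC-KO, and Krt20 was the only one of the 8 tested keratins called. Its normalized counts were 14450, 12370 and 16130 in WT DSS and 8687, 8338 and 6722 in Smad4 IEC-KO DSS. Every Smad4 IEC-KO library was below every WT library, and 21.7% of all tested genes had groups that did not overlap in this comparison. The log2 fold change was -0.85 ± 0.13 (SE), a level of 0.554 of WT, with a 95% confidence interval of -1.15 to -0.56 (edgeR quasi-likelihood test, adjusted p = 0.014). Among all 15127 genes tested, 157 (1.04%) were called in this comparison, 91 of them lower (0.602%). Krt20 lost its call when WT DSS replicate 3 was left out (log2 fold change -0.76, adjusted p = 0.052) and when Smad4 IEC-KO DSS replicate 3 was left out (-0.75, adjusted p = 0.095), and in a model of all 14 libraries (-0.86, adjusted p = 0.28), which called 0.0132% of all genes. With DESeq2, which called 3.5%, its adjusted p was 1.7e-07. For the Krt20 protein, the study reports increased immunostaining in Smad4 IEC-KO tissue sections after DSS. It proposes that this reflects responses that restore differentiation. The values here are of RNA from isolated epithelium, and their direction differs from that of the stained protein. The cause of this difference was not tested. In bulk epithelium, fewer cells that express a gene and less of its RNA per cell cannot be told apart.

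Krt7, a type II keratin of simple and glandular epithelium, had the reverse order. It had 4243, 4783 and 4366 normalized counts in WT DSS and 5673, 6111 and 6622 in Smad4 IEC-KO DSS. The groups did not overlap (21.7% of all tested genes did not). The log2 fold change was 0.46 ± 0.10 (SE), a fold of 1.38 with a 95% confidence interval of 0.24 to 0.69 on the log2 scale, and did not pass the test in edgeR (adjusted p = 0.063). It did in DESeq2 (adjusted p = 0.0023), without a filter on low counts (0.018, with 2.23% of all genes called) and without Smad4 IEC-KO DSS replicate 1 (0.049). It did not in a model of all 14 libraries (adjusted p = 1), with the replicate number as a block (0.089) or without any other single DSS library (0.087 to 0.27).

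The other simple keratins showed small differences after DSS. Krt8 had 150700, 143800 and 148000 normalized counts in WT DSS and 155400, 132700 and 140500 in Smad4 IEC-KO DSS, which overlap. Its log2 fold change of -0.04 had a 95% confidence interval of -0.29 to 0.21. Krt18, the usual partner of Krt8, had a log2 fold change of -0.11 (interval -0.35 to 0.13). Krt19, a type I keratin of ducts, crypts and many simple epithelia, had 85850, 88820 and 89320 in WT DSS and 82800, 80690 and 77820 in Smad4 IEC-KO DSS. These groups did not overlap, but the log2 fold change was -0.13 (interval -0.36 to 0.11, adjusted p = 0.61 in edgeR). Non-overlapping groups were found for 21.7% of all tested genes in this comparison. Krt23 is a type I keratin known in digestive epithelia, and its log2 fold change was -0.10 (interval -0.46 to 0.27). Of the 8 tested keratins 2 were higher and 6 lower, with a median log2 fold change of -0.10, beside 0.003 over all genes.

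**Figure D1:**
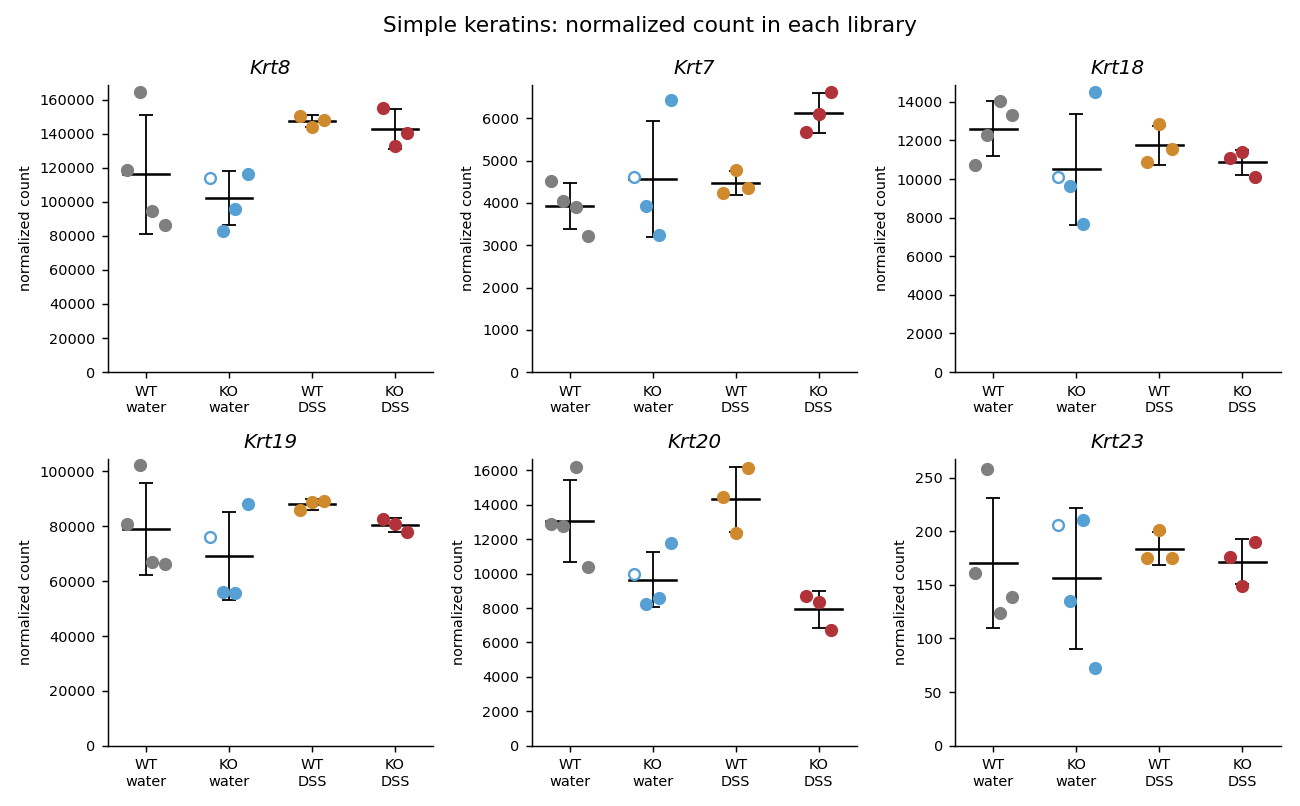
Normalized count (y axis, linear from 0) of the 6 simple keratins in each library, by group, with replicates in order from left to right; bars are the mean and SD, and the open circle is replicate 1 of Smad4 IEC-KO water. Krt20 in the 3 Smad4 IEC-KO DSS libraries, at 6722 to 8687, lies under the 3 WT DSS libraries at 12370 to 16130, whereas Krt8 overlaps between the DSS groups. Between these groups, 21.7% of all tested genes did not overlap.

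The other markers of surface colonocytes were examined beside Krt20. The list held Aqp8 (a water channel), Slc26a3 (a chloride and bicarbonate exchanger), Car1 and Car4 (carbonic anhydrases), Guca2a (guanylin), Ceacam20 and Lypd8. All 7 had negative log2 fold changes in Smad4 IEC-KO against WT after DSS, with a median of -0.19, and 3 were called. Over all tested genes, 50.4% had positive log2 fold changes, 1.04% were called and 0.602% were called lower. Car4 fell by 1.03 on the log2 scale, from 7537 to 10920 normalized counts in WT DSS to 3274 to 4894 in Smad4 IEC-KO DSS (adjusted p = 0.041). Aqp8 fell by 1.0 (adjusted p = 0.042) and Ceacam20 by 0.60 (adjusted p = 0.024). The other 4 had log2 fold changes of -0.19 for Guca2a, -0.14 for Lypd8, -0.11 for Car1 and -0.04 for Slc26a3, none called. Krt20 and the 3 called markers thus differed by more than the spread between replicates, and the other 4 did not. Car4 lost its call without any 1 of the 6 DSS libraries (adjusted p from 0.052 to 0.13), and Aqp8 and Ceacam20 lost theirs without some of them, Smad4 IEC-KO DSS replicate 3 among these (adjusted p = 0.086 and 0.12). None of the 3 was called in the model of all 14 libraries (adjusted p = 0.31 for Car4, 0.2 for Aqp8 and 1 for Ceacam20). The part of surface cells in the level of Krt20 was not tested.

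**Figure D2:**
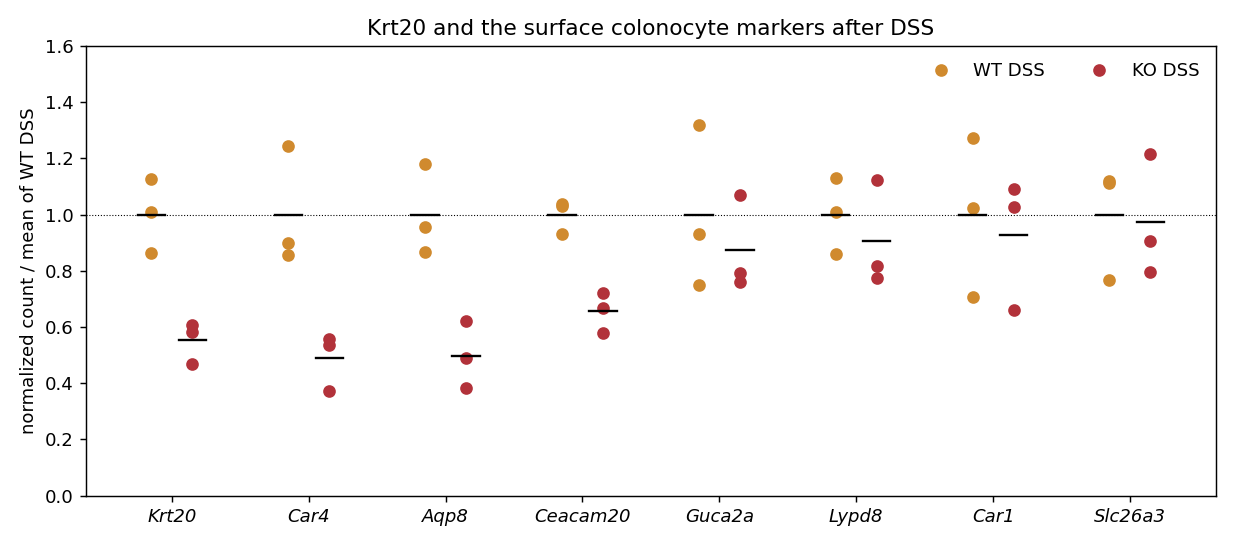
Normalized counts of Krt20 and the 7 surface colonocyte markers in the 3 WT DSS and 3 Smad4 IEC-KO DSS libraries, each divided by the mean of WT DSS (y axis, no unit; 1 is that mean); points are libraries and short lines are means. Krt20, Car4, Aqp8 and Ceacam20 have all Smad4 IEC-KO points under all WT points, and Guca2a, Lypd8, Car1 and Slc26a3 overlap. Between these groups, 21.7% of all tested genes did not overlap.

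On water, none of the 8 tested keratins was called between the genotypes. Krt20 had 12890, 12740, 16180 and 10390 normalized counts in WT water and 9991, 8253, 8555 and 11750 in Smad4 IEC-KO water, in replicate order. The groups overlapped, since WT replicate 4 was below Smad4 IEC-KO replicate 4. The log2 fold change was -0.44 ± 0.19 (SE; 95% confidence interval -0.85 to -0.03, edgeR unadjusted p = 0.039, adjusted p = 0.22). Without replicate 1 of Smad4 IEC-KO water it was -0.45 ± 0.22 (adjusted p = 0.3), and without the 3 libraries of high mitochondrial share it was -0.52 (adjusted p = 0.14). Only 1 of 15127 genes (0.00661%) was called in this comparison in edgeR, the ribosomal protein gene Rpl34, which is named here after its values were seen, while 3067 (20.3%) had an unadjusted p below 0.05. DESeq2 called 768 genes (6.46% of those with an adjusted p), and no keratin of the 10 was among them.

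Krt7 on water had 4531, 4036, 3897 and 3211 normalized counts in WT and 4608, 3929, 3254 and 6449 in Smad4 IEC-KO, the last of these in the replicate with 21.4% mitochondrial counts and the highest mesothelial marker sum (310.3 normalized counts). Its log2 fold change was 0.22 ± 0.21 (SE), was 0.22 ± 0.24 without replicate 1 of Smad4 IEC-KO, and was -0.12 when the libraries of high mitochondrial share were left out. Krt8 had 118900, 164600, 94940 and 86670 in WT water and 114000, 83100, 95550 and 116300 in Smad4 IEC-KO water. The low WT values were in replicates 3 and 4, the 2 with over 30% mitochondrial counts, and Krt19 was likewise lower there, at 66950 and 66230 against 80730 and 102200. Krt18 was not lower in these libraries, at 14050 and 13310 against 10750 and 12290. The part of the mitochondrial share in these values was not tested. The log2 fold changes of Krt8, Krt18, Krt19 and Krt23 on water ran from -0.26 to -0.13, and all their confidence intervals included 0. Without the libraries of high mitochondrial share, that of Krt8 was -0.54 ± 0.26 (SE, adjusted p = 0.26) and that of Krt19 -0.54 ± 0.25 (adjusted p = 0.23). Without replicate 1 of Smad4 IEC-KO, Krt8 was at -0.24 ± 0.29, Krt18 at -0.24 ± 0.24, Krt19 at -0.24 ± 0.27 and Krt23 at -0.29 ± 0.39.

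The response to DSS was then compared within each genotype. In WT, no keratin was called, and none of the 15127 tested genes was called in the main edgeR fit, while 3680 (24.3%) had an unadjusted p below 0.05. DESeq2 called 1777 (13.6%). Krt20 in WT had a log2 fold change of 0.13 ± 0.17 (SE) with DSS (95% confidence interval -0.25 to 0.52). Krt8 had 0.34 ± 0.23, and 0.06 ± 0.18 when WT water replicates 3 and 4 were left out. Krt19 had 0.16, Krt7 0.19, Krt23 0.10 and Krt18 -0.10, all with adjusted p of at least 0.39 in edgeR.

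In Smad4 IEC-KO, Krt8 was at 132700 to 155400 normalized counts after DSS and at 83100 to 116300 on water, and the groups did not overlap (8.88% of all tested genes did not). Its log2 fold change was 0.49 ± 0.19 (SE; 95% confidence interval 0.06 to 0.91), with an unadjusted p of 0.028 and an adjusted p of 0.75 in edgeR. Without replicate 1 of Smad4 IEC-KO water it was 0.54 ± 0.22, and 13.7% of all genes did not overlap. Krt7 had a log2 fold change of 0.43 ± 0.22 (adjusted p = 0.77), and 0.65 ± 0.16 (adjusted p = 0.17) without the replicate of high mitochondrial share. Krt20 had -0.28 ± 0.18 (adjusted p = 0.83). Without replicate 1, Krt7 was at 0.43 ± 0.26 and Krt20 at -0.27 ± 0.20. In edgeR, Rpl34 was the only gene called in this comparison (0.00661%), 975 genes (6.45%) had an unadjusted p below 0.05, and DESeq2 called 71 (0.47%). Every Smad4 IEC-KO DSS library and no Smad4 IEC-KO water library has a name that begins with D. DSS and this name prefix, which the labels do not explain, cannot be told apart in this comparison.

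Whether the genotypes differed in their response to DSS was tested with an interaction term over all 14 libraries. None of the 8 keratins was called, and Rpl34 was the only gene called (0.00661%). For Krt20, the response in Smad4 IEC-KO minus that in WT was -0.42 ± 0.25 on the log2 scale (SE; 95% confidence interval -0.95 to 0.11, adjusted p = 0.68). The difference of Krt20 between the genotypes after DSS was thus not shown to differ from that on water. For Krt7 the difference of the responses was 0.24 ± 0.27 (interval -0.32 to 0.81), and 0.58 ± 0.20 (adjusted p = 0.21) without the libraries of high mitochondrial share. Without replicate 1 of Smad4 IEC-KO water, it was -0.40 ± 0.27 for Krt20, 0.25 ± 0.29 for Krt7 and 0.20 ± 0.31 for Krt8, beside 0.14 ± 0.30 for Krt8 with it.

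**Figure D3:**
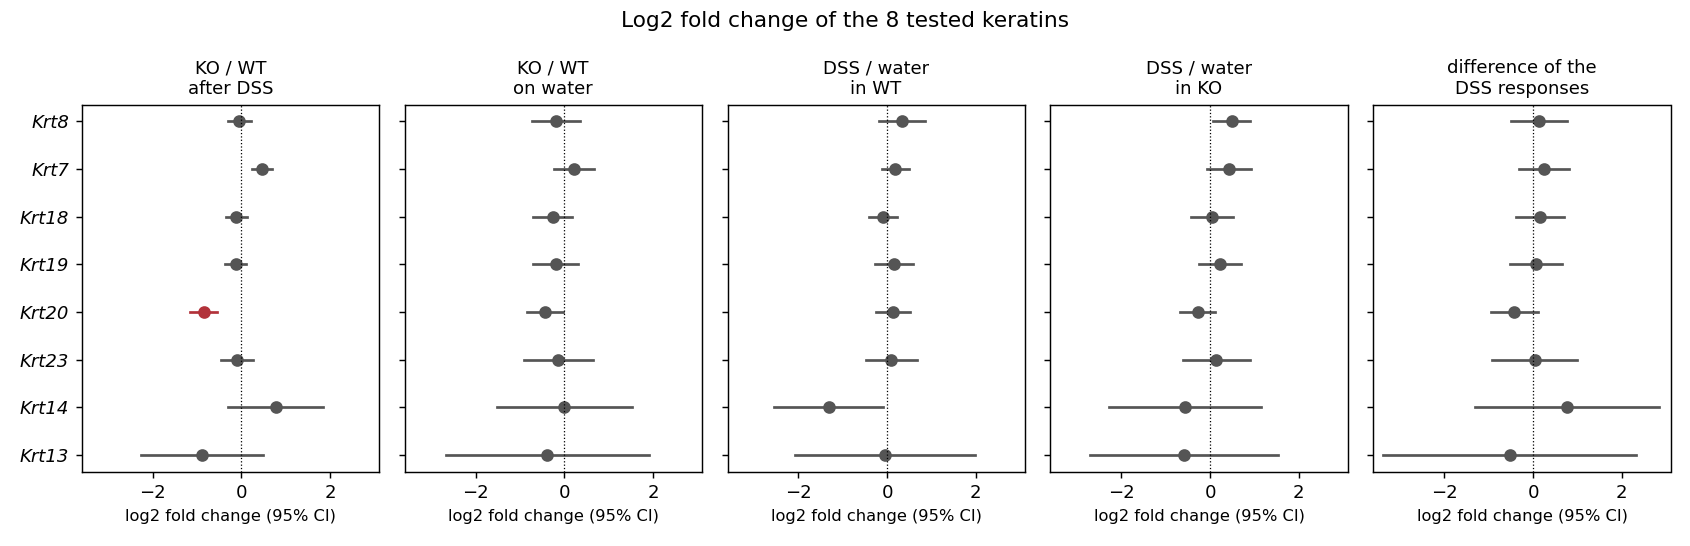
Log2 fold changes (x axis) of the 8 tested keratins in the 4 pairwise comparisons and in the difference of the DSS responses; points are edgeR estimates, lines are 95% confidence intervals, and red marks an adjusted p below 0.05. Krt20 after DSS is the one red point, at -0.85, and the lines of Krt14 and Krt13, which rest on few counts, are the widest.

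Per kb, Krt8 made up 45.4 to 56.4% of the summed level of the 10 keratins in every library, and Krt19 made up 34.4 to 40.4%. Krt20 made up 4.2 to 5.35% in WT DSS and 2.5 to 3.12% in Smad4 IEC-KO DSS, and 3.83 to 7.33% in WT water and 4.14 to 4.56% in Smad4 IEC-KO water. Krt7 made up 0.671 to 0.764% in WT DSS and 0.908 to 1.16% in Smad4 IEC-KO DSS. Its share depends on the length used, since its transcript of 4094 bases has a coding length of 1374, and per kb of coding sequence it was 1.57 to 1.79% and 2.13 to 2.71%. The keratins of the 2 types form filaments as pairs, and their summed levels were near each other: the ratio of type I to type II was 1.04 ± 0.14 in WT water (SD, n = 4), 0.97 ± 0.11 in Smad4 IEC-KO water (n = 4), 0.87 ± 0.04 in WT DSS (n = 3) and 0.78 ± 0.06 in Smad4 IEC-KO DSS (n = 3). The values of the DSS groups overlapped, at 0.826 to 0.892 and 0.744 to 0.85. No test was made of this ratio. All 10 genes together held 0.653 to 1.51% of the counts in WT water, 0.894 to 1.17% in Smad4 IEC-KO water, 1.34 to 1.42% in WT DSS and 1.31 to 1.36% in Smad4 IEC-KO DSS.

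**Figure D4:**
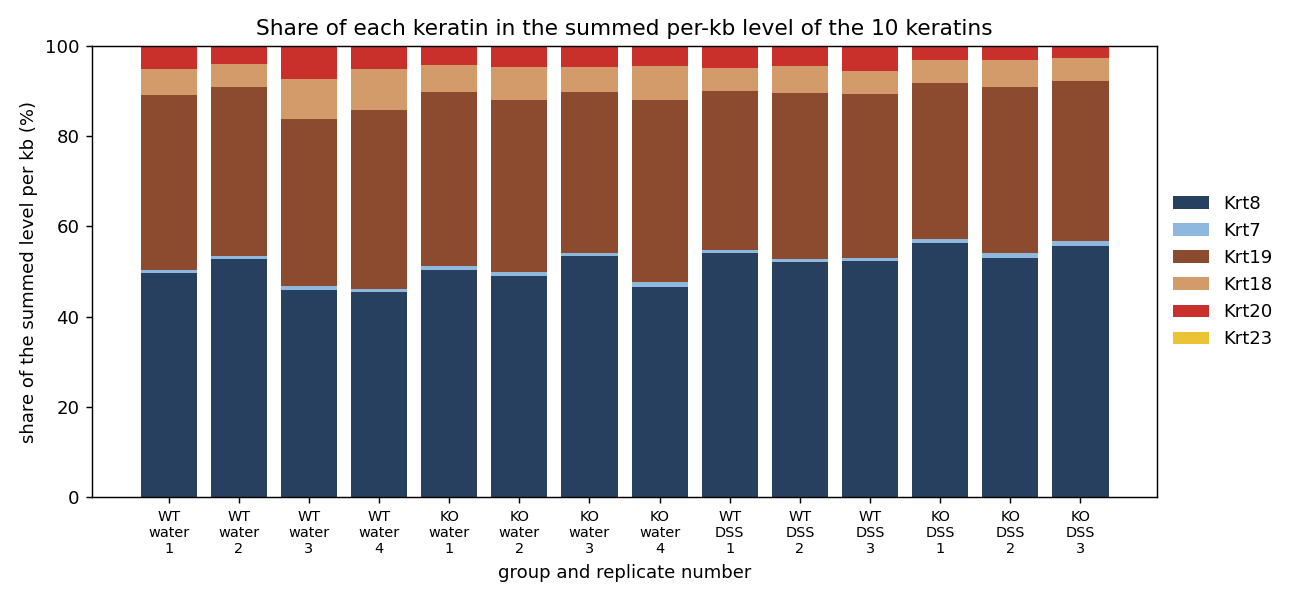
Share (y axis, %) of each keratin in the summed normalized counts per kb of the 10 keratins, 1 bar per library; Krt14, Krt13, Krt4 and Krt5 are too small to be drawn and Krt23, at most 0.135%, is barely visible. Krt8 and Krt19 fill most of every bar, and the Krt20 band is 2.5 to 3.12% in the Smad4 IEC-KO DSS libraries.

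The squamous keratins were at or near 0. Krt5, which pairs with Krt14 in basal cells, had 0 counts in all 14 libraries, which allows up to 3 counts in each, or 2.22 to 6.42 normalized counts, as far as counting error goes. Krt4 had 0 to 3 counts per library and was seen in 7 libraries. Neither passed the filter for testing. Krt14 had 39, 18, 10 and 20 raw counts in WT water, 33, 6, 10 and 55 in Smad4 IEC-KO water, 14, 12 and 8 in WT DSS and 11, 28 and 13 in Smad4 IEC-KO DSS. Its highest value, 55, was in Smad4 IEC-KO water replicate 4, where the mesothelial genes Msln (157.3 normalized counts) and Upk3b (111.3) and the fibroblast genes Dcn (231.2) and Col1a2 (102.7) were also at their highest. The part of such cells in the Krt14 counts was not tested.

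Krt14 had a log2 fold change of 0.78 ± 0.49 (SE) in Smad4 IEC-KO against WT after DSS (95% confidence interval -0.29 to 1.85, adjusted p = 0.48 in edgeR). With DSS in WT, Krt14 was at 6.743 to 12.88 normalized counts, against 15.98 to 42.81 on water. The groups did not overlap (24.4% of all tested genes did not), with a log2 fold change of -1.32 ± 0.56 (unadjusted p = 0.038, adjusted p = 0.18). Krt13, the type I keratin of the upper layers of mucosal squamous epithelium, had 13, 5, 1 and 15 raw counts in WT water, 8, 0, 15 and 14 in Smad4 IEC-KO water, 5, 21 and 10 in WT DSS and 4, 5 and 8 in Smad4 IEC-KO DSS. It was not called in any comparison, and its confidence interval after DSS ran from -2.26 to 0.50 on the log2 scale, which includes a fall of several fold.

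**Figure D5:**
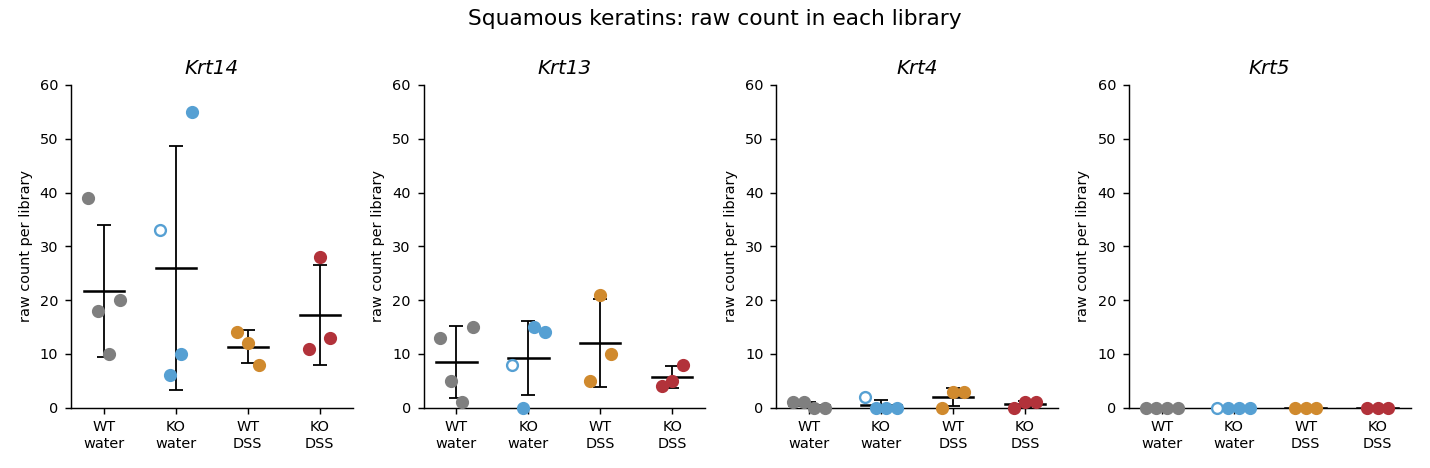
Raw counts (y axis, 0 to 60, not normalized) of the 4 squamous keratins in each library, by group, with the mean and SD as bars; the open circle is replicate 1 of Smad4 IEC-KO water. Krt14 reaches 55 counts in 1 library, Krt13 reaches 21, Krt4 reaches 3 and Krt5 is at 0 throughout.

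Other genes of stratified epithelium were looked at in the same libraries. Of 21 squamous markers, 9 passed the filter and none was called in any comparison. Trp63, Ivl, Dsg1a, Krtdap and Sprr3 had 0 counts in all libraries. The basal adhesion genes Dsg3 and Dsc3 had at most 9 and 10 counts, and Col17a1, a hemidesmosome collagen, at most 17. The summed level of the list, 9045 to 19840 normalized counts, came mostly from Tgm3, a transglutaminase at 7202 to 17910, and Serpinb5 at 886.2 to 2592. Tgm3 had a log2 fold change of -0.63 in Smad4 IEC-KO against WT after DSS (adjusted p = 0.058).

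Genes whose products bind or anchor keratin filaments were examined as a group. The list had Dsp, Plec, Ppl, Evpl, Jup, Pkp1, Pkp2, Pkp3, Dst, Itgb4, Itga6, Fam83h, Tchp and Eppk1, of which Eppk1 was not in the annotation and the other 13 were tested. After DSS, 3 had positive and 10 negative log2 fold changes in Smad4 IEC-KO against WT, with a median of -0.14, and none was called. Over all tested genes, 50.4% had positive log2 fold changes and 1.04% were called. Envoplakin (Evpl), which links desmosomes to filaments, had 1602, 2064 and 1900 normalized counts in WT DSS and 1075, 1437 and 1166 in Smad4 IEC-KO DSS, a log2 fold change of -0.60 with an adjusted p of 0.058. Their summed level was 50130 to 54610 in WT DSS and 44580 to 54220 in Smad4 IEC-KO DSS. None of the partners was called on water or with DSS in either genotype. Of the other intermediate filament genes (Vim, Des, Lmna, Lmnb1, Lmnb2, Nes and Synm), 6 were tested and none was called in any comparison.

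Genes listed as markers of cells outside the epithelium were low beside the simple keratins but were not equal between the DSS groups. The 7 fibroblast, muscle and endothelial markers summed to 51.53 to 80.07 normalized counts in WT DSS and 144.9 to 261.8 in Smad4 IEC-KO DSS. Pdgfra, on this list, fell below the filter. Of the 6 tested, 2 were called in edgeR, Col1a1 (log2 fold change 2.60, adjusted p = 0.038) and Col1a2 (3.13, adjusted p = 0.03). Over all tested genes, 1.04% were called in this comparison. Col1a1 lost its call without any 1 of the 6 DSS libraries and Col1a2 without any 1 but WT DSS replicate 3 (adjusted p up to 0.17 and 0.14). The study reads its collagen transcripts as a change of the epithelium, and barely detectable Pdgfra as a lack of fibroblast contamination. Which cells hold the collagen transcripts was not tested. The 4 mesothelial markers summed to 2.76 to 16.01 in WT DSS and 39.62 to 84.81 in Smad4 IEC-KO DSS, with 0 of 3 called. Mesothelial cells express Krt7, Krt8, Krt18 and Krt19 as well. The mean difference of Krt7 between these groups was from 4464 to 6135 normalized counts, and the part of such cells in it was not tested. In the epithelium, the goblet cell gene Fcgbp fell by 1.15 (adjusted p = 0.0014), 1 of 5 goblet cell markers called. The crypt base gene Smoc2 rose by 1.53 (adjusted p = 0.0032), 1 of 7 crypt base and cycling markers called. Of these 7, 3 had positive and 4 negative log2 fold changes, with a median of -0.06. Fcgbp, Col1a1 and Col1a2 lost their calls, and Smoc2 kept its call, when all 14 libraries were fitted together. None of the tested epithelial, tuft cell, enteroendocrine, distal colon Hox and immune markers was called after DSS.

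Besides the 10 keratins, the annotation held 40 other keratin genes, among which 15 were at 0 in all libraries, 23 had at most 3 counts in their highest library and 9 were tested. None of these 9 was called in any comparison. Krt83, a type II hair keratin, had 66.25, 59.45 and 54.79 normalized counts in WT DSS and 118.3, 99.55 and 138.2 in Smad4 IEC-KO DSS, a log2 fold change of 0.98 with an adjusted p of 0.066, and was picked out after its values were seen.

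The 3 genes most like each tested keratin were found by Pearson's r over the log2 normalized CPM of the 14 libraries, among tested genes with a mean of at least 50 normalized counts. Such values share their libraries and the differences between them, and are a description. For Krt20 these were Slc16a5 (0.888), a monocarboxylate transporter family member, Mxd1 (0.858), a Myc antagonist, and Cdkn1a (0.855), the cell cycle inhibitor p21. For Krt8 they were Abhd16a (0.951), Tspo (0.935) and Tspan15 (0.923), for Krt18 Ehbp1l1 (0.947), Ctsz (0.946) and Crb3 (0.905), and for Krt19 Myl12b (0.949), Cdipt (0.924) and U2af2 (0.922). For Krt7 they were Trappc2 (0.894), Abcf3 (0.882) and Dusp7 (0.857), and for Krt23 Hhat (0.871), Tbrg1 (0.862) and Acss2 (0.861). Krt14 was most like Bbs2 (0.892), Dtx3 (0.871) and Cebpb (0.857), and Krt13 most like Aoc2 (0.843), Top3a (0.84) and Edc4 (0.83). None of the keratins was among the 3 nearest genes of another keratin.

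Some counts may hold reads of near-identical copies. The Krt8 transcript matches a copy without introns on chr7:24142113-24143830 (mm9), identical at 1697 of 1734 aligned positions, and Krt18 matches 1 on chr13:118246579-118247933, identical at 1251 of 1385. How the authors counted reads that fit more than 1 place was not given in the sources used here, so the counts of Krt8 and Krt18 are uncertain to that extent.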

How the data were processed

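The authors isolated crypt epithelium, sequenced poly(A) RNA as 150-bp paired reads, aligned them to mm9 with Hisat2 and counted them on genes with featureCounts; the deposited values are whole-number counts per gene without normalization. The strand setting is not given in the sources used here. Libraries were grouped by the labels, which name replicates but not animals, so p-values measure the spread between these samples. The keratins, marker lists and tests were chosen with earlier results of these data known. An earlier analysis fitted all 14 libraries in 1 model, which is an alternative here and did not call Krt20 after DSS (edgeR adjusted p = 0.28). The study's methods name pairwise comparisons made with DESeq2, and do not say whether each model held only the 2 groups compared. The main fits here are pairwise but in edgeR, so the study's own tool is among the alternatives. The 15127 genes that reached 10 counts in 3 or more of the 14 libraries were tested in edgeR 4.0.16 (R 4.3.3) with TMM normalization and the robust quasi-likelihood test, in a model of the 2 groups compared, or of all 14 libraries for the interaction. Benjamini-Hochberg adjusted p below 0.05 was called. Alternatives were DESeq2 1.42.0, other models, other normalizations, no filter, a block for the replicate number or for the prefix of the library names, and leaving out single libraries. DESeq2 without Smad4 IEC-KO water replicate 1, libraries over 20% mitochondrial counts left out, and coding in place of transcript length were added after the data were seen.

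Named genes were the 10 keratins, any other keratin called, up to 4 called genes of each list with a mean of at least 50 normalized counts, Trp63, Dsg3, Dsc3, Col17a1, Smad4 and the 3 genes most like each keratin; others were named after their values were seen. Positions and lengths came from GENCODE M1 (mm9), promoters from RefSeq. Keratin copies were searched with minimap2. Of the list genes, Lypd8 and Adgre1 were matched through RefSeq synonyms. The edgeR and DESeq2 scripts were tested on simulated data. Deviations of same-numbered replicates correlated at r of -0.08 to 0.35, not above 0.1 in every pair, so numbers were not taken to pair samples. Replicates of a group differed by more than sampling noise (chi-square per degree of freedom at least 15.6).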

Additional observations from a re-analysis of the deposited data

How the results depend on the processing

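Over the 40 keratin results, 696 of 758 alternative values kept their direction and side of the threshold, 5 lost and 3 gained a call, and 54 values in 20 results turned direction, none of them called in either setting. For Krt20 after DSS the call was lost in a model of all 14 libraries (-0.86, adjusted p = 0.28 in edgeR), of 13 libraries without Smad4 IEC-KO water replicate 1 (-0.86, adjusted p = 0.2), and with name prefix D only (-0.76). After DSS, prefix D only leaves out just WT DSS replicate 3, so it is the same fit as without that replicate and is counted under both names. Krt20 was at -0.94 to -0.75 over single libraries left out. For Krt7 after DSS it was gained with DESeq2 (0.46) and without a filter (0.45), with 0.40 to 0.52 over single libraries left out.

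Genes called after DSS were 2 with all 14 libraries, 7 with 13, 499 with DESeq2, 502 without a filter, 75 with prefix D only and 54 to 129 with single libraries left out (54 without Smad4 IEC-KO DSS replicate 3). On water they were 1347, 1195, 768 and 54 in the first 4 of these, 489 with a prefix block, 625 with DESeq2 without Smad4 IEC-KO water replicate 1, 154 without the libraries of high mitochondrial share, and 1 to 1884 with single libraries left out (17 without replicate 1 and 1884 without replicate 4 of Smad4 IEC-KO). With DSS in WT they were 2 with 13 libraries, 1777 with DESeq2, 21 with upper quartile normalization, 25 without mitochondrial genes, 253 without a filter, 24 with prefix D only, 191 without the libraries of high mitochondrial share, and 0 to 777 with single libraries left out (777 without WT water replicate 2). With DSS in Smad4 IEC-KO they were 10 with all 14 libraries, 6 with 13, 71 with DESeq2, 10 without a filter, 64 with DESeq2 without replicate 1, and 1 to 3 with single libraries left out. For the difference of the responses they were 8 with DESeq2, 2 without a filter, 37 without the libraries of high mitochondrial share and 1 to 5 with single libraries left out. The causes were not tested.

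Same-numbered replicates share only a number. With the replicate number as a block, genes called were 128 after DSS, 655 on water, 110 with DSS in WT and 24 in Smad4 IEC-KO, and 1 for the difference of the responses. The block turned Krt14 on water (-0.36), Krt13 with DSS in WT (0.95), and Krt23 (-0.0685), Krt14 (0.39) and Krt13 (0.14) with DSS in Smad4 IEC-KO, and ended the calls of Aqp8 and Col1a1 after DSS. Krt20 after DSS was -0.85 with the block.

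The name prefix block turned Krt8 (0.21) and Krt19 (0.17) on water, and Krt7 (-0.0528), Krt8 (-0.25), Krt19 (-0.28) and Krt23 (-0.0061) for the difference of the responses. It could not be fitted with DSS in Smad4 IEC-KO, where every DSS library and no water library has prefix D. With prefix D only, Krt18 (0.0429), Krt19 (-0.0659), Krt23 (-0.15) and Krt13 (0.74) turned with DSS in WT. Without the libraries of high mitochondrial share, Krt7 (-0.12) and Krt14 (-0.58) turned on water, Krt18 (0.0299), Krt19 (-0.0557), Krt23 (-0.19) and Krt13 (0.59) with DSS in WT, and Krt23 (-0.10) and Krt14 (0.23) with DSS in Smad4 IEC-KO. Krt14 on water, near 0, also turned with 13 libraries (-0.0556), DESeq2 (-0.0041), RLE (-0.0018) and upper quartile normalization (-0.0268), and DESeq2 without replicate 1 (-0.0609). Smad4 with DSS in Smad4 IEC-KO turned with 13 libraries (0.10), and with DESeq2 without replicate 1 (0.10).

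With single libraries left out, values that turned ranged as follows. Krt8 after DSS ran from -0.11 to 0.0094. On water, Krt8 ran from -0.30 to 0.0375, Krt23 from -0.31 to 0.15, Krt14 from -0.78 to 0.33 and Krt13 from -0.76 to 0.65. With DSS in WT, Krt23 ran from -0.0283 to 0.38 and Krt13 from -0.76 to 0.91. With DSS in Smad4 IEC-KO, Krt18 ran from -0.0816 to 0.25, Krt23 from -0.10 to 0.31, Krt14 from -1.05 to 0.23 and Smad4 from -0.92 to 0.10. For the difference of the responses, Krt8 ran from -0.08 to 0.27, Krt19 from -0.0869 to 0.20, Krt23 from -0.25 to 0.21 and Krt13 from -1.51 to 0.18. With at most 55 counts for Krt14 and 21 for Krt13 in a library, depth limits what these 2 can show.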
